A study of Mus musculus with 9 samples.

Results

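The genes described here are the AP-1 subunits and their immediate early companions in osteocyte-like cells: Fos, Fosb, Fosl1 and Fosl2 of the FOS family, Jun, Junb and Jund of the JUN family, and Atf3, Egr1 and Ier3. They were taken by symbol from the deposited count table, where each had 1 row, and all 10 were among the 13812 genes tested out of 56748 in the table. RNA was sequenced from MLO-Y4, an immortalized osteocyte-like mouse line, kept in a transwell system with a 1.0 µm insert beside primary articular chondrocytes of 5- to 6-day-old C57BL/6J mice. Every group contained chondrocytes. In the control group (n = 3) they were unstimulated. In the 24 h and 48 h groups (n = 3 each) they had first received 10 ng/mL IL-1β for 6 h, and the co-culture then lasted for the named time. The labels give no culture time for the control, so stimulation and time in culture cannot be told apart in a difference from control. They also name the line of the 48 h samples MLO-Y5, MLO-Y6 and MLO-Y7, whereas the protocols name MLO-Y4. Nothing states that the libraries of a group came from separate cultures, so p-values measure the spread between these libraries, which may be technical.

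The libraries held 12250628 to 18515456 counts, of which the 10 genes took 0.0613% to 0.0832%. Levels are given in CPM, that is, counts scaled to library size with TMM factors. The osteocyte identity of the line was only partly visible: Mepe and Fgf23 had 0 counts in every library, Sost had at most 1 and Dmp1 at most 6, whereas Phex, Pdpn, Gja1 and Col1a1 were expressed. Of 14 chondrocyte markers, Acan, Matn1, Cnmd, Col9a1, Col9a2 and Ucma had 0 counts throughout. Snorc had at most 1 count per library, Col2a1 at most 7, Hapln1 at most 8 and Comp at most 21. Sox9, in contrast, had 1379 to 2239 counts per library, Matn3 20 to 60 and Col11a2 15 to 39. The list summed to 1681 to 1716 CPM in control, 1565 to 1649 CPM at 24 h and 2127 to 2216 CPM at 48 h, mostly through Prg4. Of 6 macrophage markers, Adgre1 and Tyrobp had 0 counts throughout, whereas Csf1r had 23 to 61 counts per library and Cd68 26 to 61. That list summed to 3.80 to 7.93 CPM. The part of other cells in the changes below was not tested. In RNA from a whole well, fewer cells of a type and less RNA per cell cannot be told apart.

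AP-1 is a dimer of basic leucine zipper proteins. FOS proteins typically pair with a JUN protein, JUN proteins also pair with each other, and ATF3 can join JUN proteins or pair with itself. FOS, FOSB and EGR1 are classical immediate early genes, induced within minutes of a stimulus through MAP kinases and factors such as SRF and CREB, and their transcripts are short-lived. FOSL1 and FOSL2 (also called FRA-1 and FRA-2) usually follow later and last longer, and in bone FOSL1 and FOSL2 act in matrix formation and osteoblast and osteoclast differentiation.

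Against control, the called members were all higher at 24 h and went in both directions at 48 h. At 24 h, 4 were higher (Fosl1, Fosl2, Junb and Ier3) and 0 were lower by edgeR's quasi-likelihood test at an adjusted p under 0.05, beside 3.25% of all tested genes called higher and 2.9% called lower. No member was lower at an unadjusted p under 0.05 either (0 genes), nor by DESeq2 (0 genes). The counts over all genes at 24 h, 449 higher and 400 lower, became 873 and 602 without control replicate 3, 302 and 222 without 24 h replicate 1, and 295 and 223 without 24 h replicate 3. At 48 h, 5 were higher (Fosb, Fosl2, Jund, Atf3 and Ier3) and 2 were lower (Fosl1 and Egr1), beside 22% and 24.4% of tested genes. From 24 h to 48 h, 5 rose (Fosb, Fosl2, Jun, Jund and Atf3) and 3 fell (Fosl1, Egr1 and Ier3), beside 23.7% and 25.4%. Library values of the compared groups were fully separate for 5 members at 24 h, 7 at 48 h and 9 between the times, beside 21.5%, 53.1% and 59.4% of tested genes. The median log2 fold change over the members was 0.19 at 24 h and 0.27 at 48 h, beside -0.004 and -0.002 over all genes tested. A joint test of the groups called 8 of the 10, all but Fos and Jun, beside 51.9% of tested genes.

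**Figure D1:**
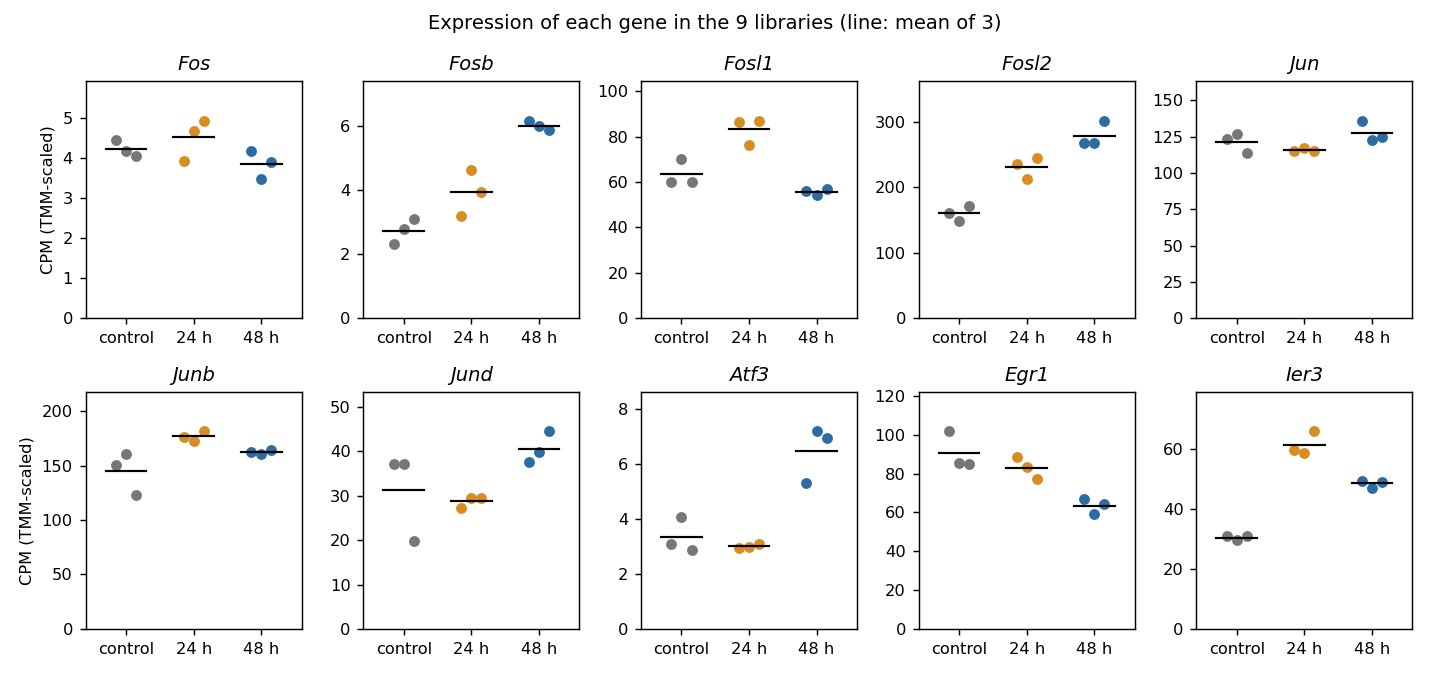
CPM per library for each of the 10 genes, with 3 points per group and the group mean. Fosl2 and Ier3 lie above control at both times, Fosl1 rises at 24 h and lies below control at 48 h, Fosb and Atf3 are highest at 48 h, and Fos and Jun overlap control at both times.

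Fosl2, the FOS family member with the most counts, rose at both times. Its gene lies on the plus strand of chromosome 5 at 32293145 to 32315186 (GRCm39, as in the deposited table). Levels were 160.5, 148.8 and 171.2 CPM in control, 235.2, 212.5 and 244.6 CPM at 24 h, and 267.0, 268.3 and 301.9 CPM at 48 h. The 3 groups did not overlap, and each stood above the one before it. The log2 fold change was 0.53 at 24 h (SE 0.07, adjusted p = 3.62e-05) and 0.80 at 48 h (SE 0.07, adjusted p = 1.44e-08), and the step from 24 h to 48 h was 0.27 (SE 0.06, adjusted p = 0.0017).

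Fosl1, its close relative, turned. The gene lies at 5497575 to 5505974 on the plus strand of chromosome 19. Control libraries had 60.2, 70.3 and 59.9 CPM, 24 h libraries 86.6, 76.6 and 87.1 CPM, and 48 h libraries 56.0, 54.3 and 56.7 CPM. All 24 h libraries were above control and all 48 h libraries below it, the latter by a small margin. Fosl1 rose by 0.40 at 24 h on the log2 scale (SE 0.07, adjusted p = 0.0012) and fell from 24 h to 48 h by 0.58 (SE 0.07, adjusted p = 1.54e-06). The fall below control at 48 h was -0.19 (SE 0.07, adjusted p = 0.04) and was called in only 5 of 16 alternative analyses, with adjusted p between 0.0267 and 0.252. It was lost without control replicate 2 (log2 fold change -0.10, adjusted p = 0.252), 24 h replicate 1 (0.0538) or 3 (0.0628), or any of the 48 h replicates (0.078, 0.121 and 0.0733). Fosl1 overlaps Ccdc85b on the opposite strand, which rose at 48 h by 0.37 (adjusted p = 0.0222). Whether reads were assigned by strand is not stated, so reads of this pair cannot be told apart in the overlap.

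Fosb, a gene that also encodes the truncated ΔFOSB, which gene counts cannot separate, was scarce and was higher at 48 h. It lies on the minus strand of chromosome 7 at 19036621 to 19043976 and had 34 to 110 counts per library. The levels were 2.32, 2.78 and 3.08 CPM in control, 3.20, 4.62 and 3.95 CPM at 24 h and 6.17, 5.99 and 5.87 CPM at 48 h, without overlap between any groups. The 24 h difference of 0.53 had a 95% interval of 0.12 to 0.95 and was not called (adjusted p = 0.131). At 48 h the log2 fold change was 1.15 (SE 0.18, adjusted p = 5.19e-05), a 2.21-fold rise, and it was 0.61 from 24 h to 48 h (SE 0.17, adjusted p = 0.00644). Fos itself, on the plus strand of chromosome 12 at 85520664 to 85524047, had only 51 to 73 counts. It measured 4.46, 4.17 and 4.06 CPM in control, 3.94, 4.69 and 4.94 CPM at 24 h, and 4.17, 3.48 and 3.90 CPM at 48 h. The groups overlapped, and no difference was detectable at this depth: the 95% intervals of the log2 fold change were -0.27 to 0.45 at 24 h and -0.50 to 0.22 at 48 h. Samples were taken at 24 h and 48 h, so a brief earlier change of Fos was not measured.

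The promoter sequences of Fos, Fosb, Fosl2 and Jund are shown because they range from several matches to a cyclic AMP response element (CRE) or its core to none. Each is the stretch of 300 bases before the start of the canonical transcript (GENCODE release M39, GRCm39), written 5′ to 3′ on the strand of the gene. Fos is chr12:85520358-85520657 on the plus strand, Fosb chr7:19043977-19044276 on the minus strand, and Fosl2 chr5:32292407-32292706 and Jund chr8:71151299-71151598 both on the plus strand. The Fosl2 window ends before the annotated start at 32292707, upstream of the gene start in the deposited table. Capitals mark the CRE (TGACGTCA), its core (TGACG, counted also inside the CRE) and the CArG box, the binding motif of SRF, on either strand.
Fos: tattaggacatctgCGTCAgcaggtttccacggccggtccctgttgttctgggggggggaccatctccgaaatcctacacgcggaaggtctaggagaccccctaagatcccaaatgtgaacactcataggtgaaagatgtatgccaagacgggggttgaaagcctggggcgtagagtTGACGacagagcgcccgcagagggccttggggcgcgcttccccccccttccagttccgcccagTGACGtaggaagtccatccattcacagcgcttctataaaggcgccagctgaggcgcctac
Fosb: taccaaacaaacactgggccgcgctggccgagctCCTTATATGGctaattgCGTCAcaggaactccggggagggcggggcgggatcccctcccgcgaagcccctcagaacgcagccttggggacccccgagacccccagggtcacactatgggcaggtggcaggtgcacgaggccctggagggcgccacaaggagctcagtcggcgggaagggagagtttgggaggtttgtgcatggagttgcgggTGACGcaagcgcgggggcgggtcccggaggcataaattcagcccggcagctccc
Fosl2: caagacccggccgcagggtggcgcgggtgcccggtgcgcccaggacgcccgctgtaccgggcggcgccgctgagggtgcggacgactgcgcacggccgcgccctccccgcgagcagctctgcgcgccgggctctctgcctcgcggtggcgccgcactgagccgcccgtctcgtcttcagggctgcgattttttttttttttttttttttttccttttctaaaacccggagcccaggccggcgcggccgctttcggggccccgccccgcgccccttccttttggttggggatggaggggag
Jund: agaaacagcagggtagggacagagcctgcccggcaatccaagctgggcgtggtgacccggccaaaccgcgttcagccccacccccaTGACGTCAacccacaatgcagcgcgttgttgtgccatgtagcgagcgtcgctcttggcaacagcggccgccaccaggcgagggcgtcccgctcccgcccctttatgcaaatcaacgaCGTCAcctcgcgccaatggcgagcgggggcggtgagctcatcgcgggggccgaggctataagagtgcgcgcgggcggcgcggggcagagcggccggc

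The window of Fos held 3 CRE cores, at -286 to -282, -123 to -119 and -60 to -56 from the start, and a TATA box (TATAAA) at -27 to -22. That of Fosb held 2 CRE cores, at -249 to -245 and -54 to -50, and a CArG box at -266 to -257. No capital stands in the window of Fosl2. Jund carried the CRE at -214 to -207 and a further core at -97 to -93. Over the 9 members searched, a CRE core occurred in 5 windows, beside 19.9% of 21770 protein-coding promoters, a CRE in 1 beside 1.75%, a CArG box in 1 beside 1.69% and TATAAA in 2 beside 14.2%. For Atf3 the window lies before the canonical start at 190915537, well inside the gene. The bases before its 5′ end at 190950236 in the deposited table were not searched. The SP1 site GGGCGG occurred in 8, beside 37.6%. The AP-1 site TGANTCA occurred in 0, beside 7.38%, and the EGR site GCGTGGGCG in 0, beside 0.583%. Only these exact letters were matched, so variants such as TGACATCA, which stands in the window of Jun, were not counted. Sites cut by the edge of a window were not counted. The window of Fos opens with tattagg, letters that could end a CArG box beginning before the window. The matches describe letters in the windows and show no binding.

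Among the JUN genes, Junb was higher at 24 h and Jund at 48 h, while Jun was called at neither time against control. Junb, on the minus strand of chromosome 8 at 85701113 to 85705347, had 150.1, 160.9 and 122.6 CPM in control, 176.0, 172.9 and 181.5 CPM at 24 h, and 162.2, 160.3 and 164.5 CPM at 48 h. The 24 h libraries were all above control, whereas control and 48 h overlapped. The log2 fold change was 0.29 at 24 h (SE 0.07, adjusted p = 0.0197) and 0.17 at 48 h (95% interval 0.02 to 0.32, adjusted p = 0.0656). The 24 h call was lost without 24 h replicate 1 (adjusted p = 0.0666) or 3 (0.0872) and with only the 2 groups compared (0.0533), over a range of 1.28e-05 to 0.0872 in 16 alternatives. At 48 h Junb was called higher without control replicate 2 (0.26, adjusted p = 0.00259) and under both other scalings and with no filter, over a range of 0.00259 to 0.26. Without control replicate 3, the lowest control library, Junb rose by only 0.077 on the log2 scale at 48 h (adjusted p = 0.26). At 24 h it then rose by 0.19 (adjusted p = 0.0242). From 24 h to 48 h it was not called (-0.12, adjusted p = 0.166), but was lower without control replicate 3 (adjusted p = 0.0488) and with only the 2 groups compared (0.0193), in a range of 0.0193 to 0.377. The opposite-strand neighbour Prdx2, which overlaps Junb, rose by 0.27 from 24 h to 48 h (adjusted p = 0.000728). Prdx2 was also higher at 48 h than in control (0.19, adjusted p = 0.0121).

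Jund, a subunit usually present in resting cells, lies on the plus strand of chromosome 8 at 71151599 to 71153265. It gave 37.0, 37.1 and 19.7 CPM in control, 27.2, 29.5 and 29.5 CPM at 24 h, and 37.6, 39.8 and 44.5 CPM at 48 h. Control replicate 3 stood far below the other control libraries, and the 48 h libraries were above all others. The log2 fold change was -0.13 at 24 h (95% interval -0.45 to 0.20, adjusted p = 0.731) and 0.37 at 48 h (SE 0.15, adjusted p = 0.0463). From 24 h to 48 h Jund rose by 0.50 (SE 0.15, adjusted p = 0.00922). Both differences from control turned on control replicate 3: without it, the 24 h value was -0.36 and called lower (adjusted p = 0.00727), and the 48 h value was 0.15 and not called (adjusted p = 0.151). The 24 h value became 0.028 without control replicate 1 and 0.0029 without control replicate 2, and over the alternatives its adjusted p ran from 0.00727 to 0.997. The 48 h call was also lost without any of the 24 h replicates (0.0528, 0.0505 and 0.0515), without 48 h replicate 2 (0.0824) or 3 (0.16), by DESeq2 (0.208) and with only the 2 groups compared (0.0705). It held in 7 of 16 alternatives, with adjusted p between 4.84e-05 and 0.208. DESeq2 did not call the rise from 24 h to 48 h (adjusted p = 0.0879).

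Jun, on the minus strand of chromosome 4 at 94937271 to 94940459, overlapped control at both times. Its levels were 123.7, 126.7 and 114.0 CPM in control, 115.1, 116.9 and 114.9 CPM at 24 h, and 136.1, 122.4 and 124.6 CPM at 48 h. Against control, the 95% intervals of the log2 fold change were -0.19 to 0.05 at 24 h and -0.05 to 0.19 at 48 h. From 24 h to 48 h Jun rose by 0.14 (SE 0.06, adjusted p = 0.0457), a call lost without any of the 24 h replicates (0.116, 0.0627 and 0.0897) and without 48 h replicate 1 (log2 fold change 0.09, adjusted p = 0.243) or 3 (0.0588), by DESeq2 (0.0531) and with no filter (0.13), in a range of 0.0131 to 0.243. The antisense transcript Junos, which overlaps Jun, was called in none of the 3 comparisons and had 64 to 130 counts.

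**Figure D2:**
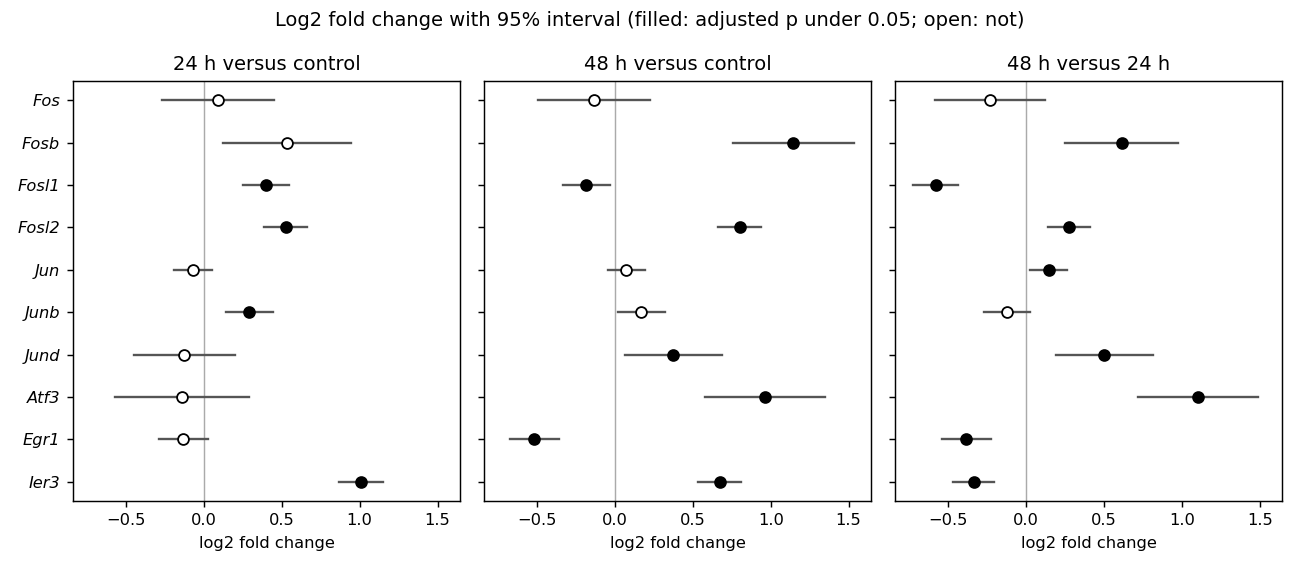
Log2 fold change of each member with its 95% interval at 24 h against control, at 48 h against control and at 48 h against 24 h, with filled symbols for an adjusted p under 0.05. Ier3 is highest at 24 h (1.01), Fosb (1.15) and Atf3 (0.96) are highest at 48 h, and Egr1 is lowest at 48 h (-0.52).

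Atf3, a stress-induced factor that often represses its targets, was higher at 48 h and was not called at 24 h. It lies on the minus strand of chromosome 1 at 190902493 to 190950236 and had 38 to 130 counts per library. Levels were 3.08, 4.09 and 2.86 CPM in control, 2.94, 2.99 and 3.10 CPM at 24 h, and 5.31, 7.19 and 6.94 CPM at 48 h. The 48 h libraries were all above the rest, and control and 24 h overlapped. At 48 h the log2 fold change was 0.96 (SE 0.18, adjusted p = 0.000286), and it was 1.10 against 24 h (SE 0.18, adjusted p = 6.61e-05). At 24 h it was -0.14 (95% interval -0.57 to 0.29, adjusted p = 0.787), which became 0.021 without control replicate 2.

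Egr1, a zinc-finger factor of the immediate early class, went the other way. It had 101.8, 85.4 and 85.0 CPM in control, 88.4, 83.1 and 77.3 CPM at 24 h, and 66.7, 59.4 and 64.3 CPM at 48 h. All 48 h libraries were below all others. Egr1 fell by 0.52 at 48 h on the log2 scale (SE 0.07, adjusted p = 1.53e-05) and by 0.39 from 24 h to 48 h (SE 0.07, adjusted p = 0.0003). Its 24 h value of -0.13 was not called (95% interval -0.29 to 0.02, adjusted p = 0.362).

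Ier3, an early response gene that affects cell survival and MAP kinase signalling and is no transcription factor of the AP-1 class, gave the largest rise among the members at 24 h. It lies on the plus strand of chromosome 17 at 36132576 to 36133815. Control libraries had 31.0, 29.6 and 31.0 CPM, 24 h libraries 59.7, 58.8 and 66.0 CPM, and 48 h libraries 49.5, 47.2 and 49.2 CPM, with no overlap between groups. The rise was 1.01 at 24 h (SE 0.07, adjusted p = 1.39e-08), or 2.01-fold, and 0.67 at 48 h (SE 0.07, adjusted p = 1.76e-07), or 1.59-fold. From 24 h to 48 h Ier3 fell by 0.34 (SE 0.06, adjusted p = 0.000194). The calls of Fosb, Fosl2, Atf3, Egr1 and Ier3 held in all 16 alternatives that set no minimum fold.

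Set against each other per length of gene, Fosl1 led the FOS family in control and at 24 h, and Fosl1 and Fosl2 were nearly level at 48 h. These are CPM per kilobase of the authors' gene length, given as descriptions with no test. In control, Fosl1 contributed 62.4% ± 3.48 (SD, n = 3) of the summed FOS level, Fosl2 33.2% ± 3.31, Fos 3.60% ± 0.271 and Fosb 0.874% ± 0.118. At 24 h Fosl1 held 60.9% ± 0.713 and Fosl2 35.3% ± 0.276, and at 48 h Fosl1 held 46.6% ± 1.23 and Fosl2 49.0% ± 1.48. Fosl2 has a long transcript, and with canonical transcript lengths, an alternative chosen after seeing the data, the Fosl2 share ran from 38.5% in control to 40.8% and 54.5%. In raw counts, without regard to length, Fosl2 led in every group, with 69.4%, 71.5% and 80.9% against 27.6%, 25.9% and 16.2% for Fosl1. The summed FOS level was 50.0 ± 1.94 CPM per kilobase in control, 67.4 ± 4.50 at 24 h and 58.8 ± 2.55 at 48 h, without overlap of the 24 h libraries with control.

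In the JUN family, Junb led in every group. It held 52.5% ± 0.731 of the summed JUN level in control, 58.9% ± 0.798 at 24 h and 52.3% ± 0.465 at 48 h. Jun held 32.1% ± 2.91, 27.8% ± 0.584 and 29.7% ± 1.57, and Jund 15.4% ± 3.20, 13.2% ± 0.503 and 18.1% ± 1.42. The JUN sum was 119.7 ± 16.5 CPM per kilobase in control, 130.3 ± 1.99 at 24 h and 135.0 ± 2.76 at 48 h. Control libraries ran from 100.9 to 131.9 and overlapped those of the 24 h and 48 h groups. The ratio of summed FOS to JUN level was 0.423 ± 0.0578, 0.517 ± 0.0311 and 0.436 ± 0.0121, with control again overlapping both other groups. These are levels of transcripts, and dimers were not measured.

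**Figure D3:**
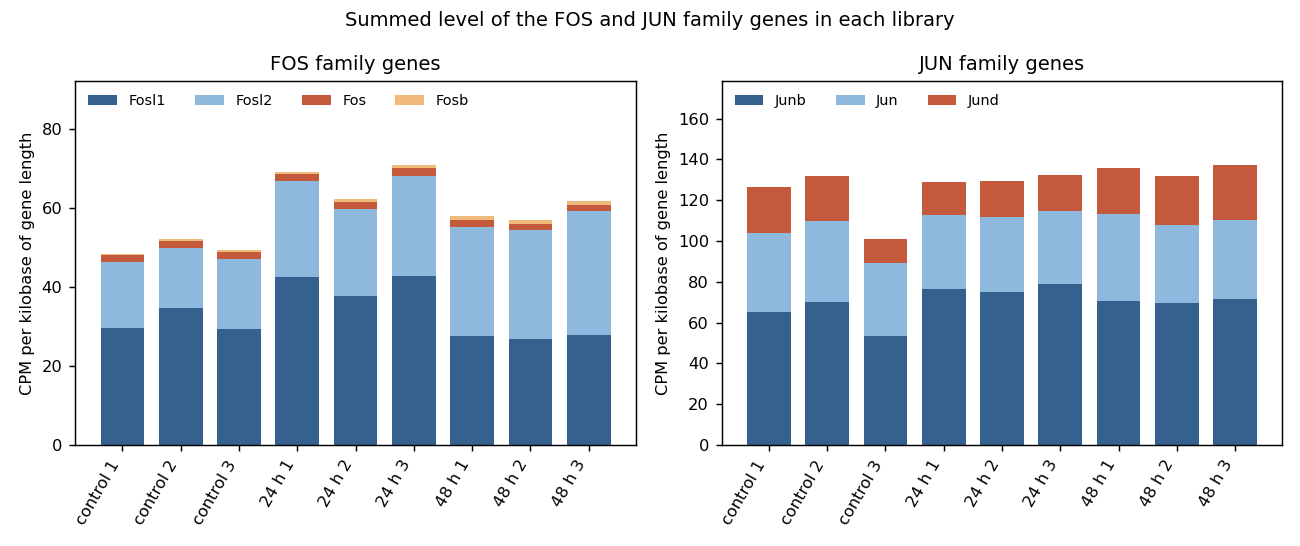
Level in CPM per kilobase of gene length, stacked by member, for the FOS family (left) and the JUN family (right), with 1 bar per library. The FOS bars of the 24 h libraries are the tallest, the Fosl2 part exceeds its control size at both times, and control replicate 3 has the lowest JUN bar (100.9 CPM per kilobase).

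Across all 10 genes, Junb had the highest level per length in every group (62.8, 76.8 and 70.5 CPM per kilobase) and Fosb the lowest (0.437, 0.629 and 0.963). Control followed the order Junb, Jun (38.1), Fosl1 (31.2), Ier3 (27.0), Egr1 (20.2), Jund (18.8), Fosl2 (16.5), Fos (1.80), Atf3 (1.6) and Fosb, with overlapping libraries for the neighbours Egr1 and Jund, Jund and Fosl2, and Fos and Atf3. At 24 h Ier3 (54.4) came next after Junb, before Fosl1 (41.0), Jun (36.3), Fosl2 (23.8), Egr1 (18.5) and Jund (17.2), of which Egr1 and Jund overlapped. At 48 h Ier3 (43.0) overlapped Jun (40.1), and Fosl2 (28.8), Fosl1 (27.4) and Jund (24.4) overlapped in turn, ahead of Egr1 (14.2), Atf3 (3.01) and Fos (1.64). With canonical transcript lengths, Fosl2 (40.0) and Fosl1 (29.9) did not overlap at 48 h.

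The following gene lists are described by their counts, to be read beside the shares over all tested genes, 3.25% higher and 2.9% lower at 24 h and 22% and 24.4% at 48 h. Of the other leucine zipper partners, 8 of 11 were tested, and 0 were higher and 1 lower at 24 h, and 3 and 2 at 48 h. With 8 genes, these counts are too small to set against those shares. Jdp2, a repressor that dimerizes with JUN proteins, was lower at 24 h (50.8 against 64.5 CPM, log2 fold change -0.34, adjusted p = 0.00355). It was also lower at 48 h (-0.22, adjusted p = 0.012). At 48 h Maff (0.40, adjusted p = 0.00451) and Atf7 (0.34, adjusted p = 0.000427) were higher and Mafk was lower (-0.25, adjusted p = 0.0138). The list's median was 0.02 at 24 h and 0.16 at 48 h. Batf, Batf2 and Maf had too few counts to be tested.

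Other immediate early and early response genes, 27 of 29 tested, were called higher in 6 cases and lower in 0 at 24 h, and higher in 6 and lower in 14 at 48 h, with medians of 0.07 and -0.26. Nr4a2, an orphan nuclear receptor, rose at 24 h from 9.02 to 17.1 CPM (0.90, adjusted p = 0.00048), and the kinase gene Sgk1 rose from 216.4 to 330.7 CPM (0.61, adjusted p = 4.32e-07). At 48 h Arc, known from neurons, fell from 59.6 to 21.9 CPM (-1.44, adjusted p = 2.1e-11), Ccn1, a matricellular protein, from 103.7 to 45.2 CPM (-1.20, adjusted p = 1.5e-11), and Phlda1 was lower (-1.17, adjusted p = 2.32e-07).

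MAP kinases and their upstream kinases, 25 of 26 tested, were called in 1 case in each direction at 24 h and in 5 cases in each direction at 48 h, near the shares of all tested genes (22% and 24.4% at 48 h). Map3k8, the kinase TPL2, rose from 3.17 to 10.2 CPM at 48 h (1.68, adjusted p = 3.11e-07), while Mapk13 (-0.74, adjusted p = 6.21e-08) and Map2k3 (-0.50, adjusted p = 6.32e-07) were lower. Of 14 tested feedback inhibitors out of 16, 0 were higher and 1 lower at 24 h, and 2 were higher and 6 lower at 48 h, beside 3.25% and 2.9% of all tested genes at 24 h and 22% and 24.4% at 48 h. Dusp5, a nuclear ERK phosphatase, fell from 25.6 to 10.8 CPM (-1.24, adjusted p = 1.07e-08) and Spry2 was lower (-0.64, adjusted p = 0.000898), whereas Dusp1 rose from 39.8 to 61.5 CPM (0.63, adjusted p = 4.92e-07).

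Factors that bind immediate early promoters were all tested (13 of 13), with 1 higher and 0 lower at 24 h and 4 higher and 1 lower at 48 h. Srf, the factor of the CArG box, fell at 48 h from 69.3 to 54.7 CPM (-0.34, adjusted p = 0.000668), and Crem, which binds the CRE, rose (0.60, adjusted p = 0.000854), as did Mrtfb, a coactivator of SRF (0.34, adjusted p = 0.0026). Nab1, a corepressor of EGR1, rose at 24 h (0.22, adjusted p = 0.0242) and 48 h (0.26, adjusted p = 0.000845), and of the 2 corepressors it was the one called. Of 6 genes whose proteins bind AU-rich mRNAs, a class that includes many immediate early transcripts, 1 was higher and 0 lower at 24 h and 1 higher and 4 lower at 48 h. Zfp36l1 rose from 70.9 to 150.7 CPM at 48 h (1.09, adjusted p = 1.57e-11), and Zfp36 (-0.39, adjusted p = 0.00101) and Elavl1 (-0.37, adjusted p = 3.03e-05) were lower. ZFP36 and ZFP36L1 promote the decay of such mRNAs, whereas ELAVL1 (HuR) is known to stabilize them, so the list mixes opposite roles.

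Of 20 textbook AP-1 target genes, 19 were tested. At 24 h 11 were higher and 0 lower, with a median of 0.55, and at 48 h 6 were higher and 12 lower, with a median of -0.52. The collagenase gene Mmp13 rose from 3.70 to 13.5 CPM at 24 h (1.85, adjusted p = 3.12e-08) and to 28.2 CPM at 48 h (2.91, adjusted p = 1.84e-12). The stromelysin gene Mmp3 rose from 4.02 ± 0.855 to 25.5 ± 3.68 CPM at 24 h (2.64, adjusted p = 2.47e-09) and stood at 22.0 CPM at 48 h (2.42, adjusted p = 5.3e-10). Lif, a cytokine of the IL-6 family, rose to 20.5 from 7.41 CPM at 24 h (1.46, adjusted p = 1.02e-06) and fell by 1.84 from 24 h to 48 h (adjusted p = 3.2e-09). Ptgs2, the inducible cyclooxygenase, fell from 96.3 to 29.6 CPM between the times (-1.70, adjusted p = 1.26e-11). Tnfrsf12a was 234.6 CPM in control and 84.8 CPM at 48 h (-1.47, adjusted p = 2.56e-12). These genes answer to many other factors, and binding of AP-1 to them was not measured.

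**Figure D4:**
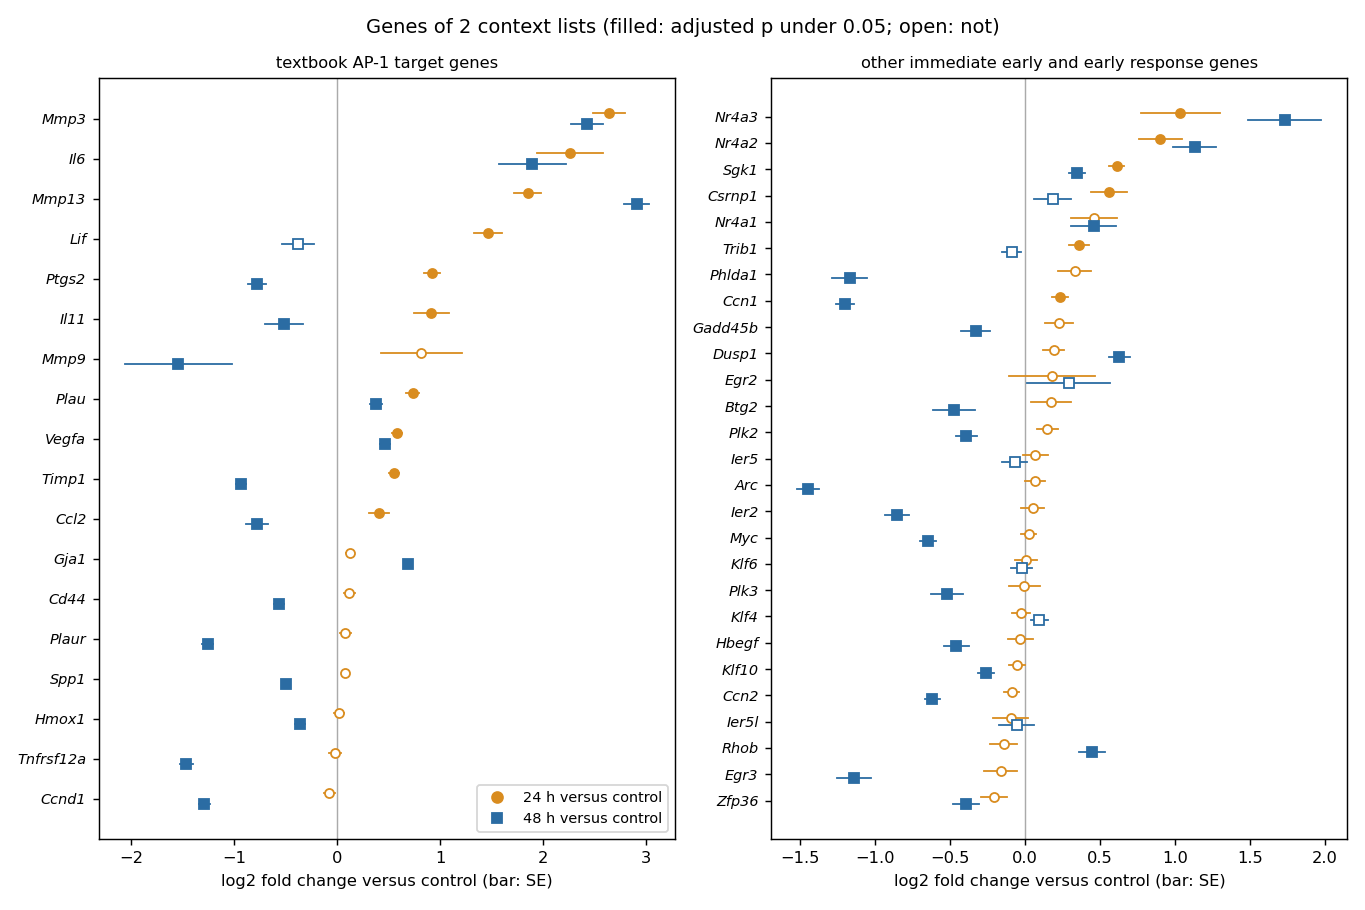
Log2 fold change against control at 24 h (circles) and 48 h (squares) for genes of the AP-1 target list (left) and of the other immediate early genes (right), with SE bars and filled symbols for an adjusted p under 0.05. Mmp3 (2.64 and 2.42) and Mmp13 (1.85 and 2.91) lie far to the right at both times, and the other immediate early genes have 6 higher and 0 lower at 24 h, then 6 and 14 at 48 h.

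For the 3 members with the largest changes, the genes with the most similar pattern were found by Pearson's r of log2 CPM over the 9 libraries, which share the same groups and scaling. For Fosb these were Ifnar1 (r = 0.979), Pcdhga7 (0.973), whose exons are partly shared within its gene cluster, and Glipr2 (0.973). Atf3 was most like Tfr2 (0.981), Npdc1 (0.979) and Hoxd4 (0.976), and Ier3 most like Sgk1 (0.984), Adipor2 (0.979) and Cxcl5 (0.978).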

How the data were processed

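Raw counts were deposited by the authors as whole numbers in 1 gene table, without normalization. According to the protocols, reads from a directional library kit were aligned to GRCm39 with HISAT2 and counted with featureCounts. The methods also name RSEM, and the strand setting and the handling of reads with several matches are not given in the sources used here. Groups and replicate numbers come from the sample labels.

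Counts of all 9 libraries entered 1 fit in edgeR 4.0.16 (R 4.3.3) with group as the only term, after filterByExpr (minimum count 10) and TMM scaling. P-values of the quasi-likelihood F-tests were adjusted by the Benjamini-Hochberg method over 13812 genes, with calls made below 0.05. CPM, levels per kilobase and standard errors were computed from the deposited counts and gene lengths. Alternatives were DESeq2 1.42.0, other scalings, no filter, other thresholds, 2 groups at a time, a replicate block and leaving out each library. The procedure was tested on simulated data.

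The members and gene lists were chosen with earlier results of these data known. All members are named. Of each list at most 3 genes per comparison were named, those with the largest absolute log2 fold change among called genes whose mean reached 5 CPM in one of the compared groups. Only some of these are printed, and 1 list gene and 1 promoter window are not reported here. For the 3 members with the largest changes, the 3 most similar protein-coding genes are given.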

Additional observations from a re-analysis of the deposited data

Results flagged for a closer look

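For 8 of the 10 genes the change from control differed between 24 h and 48 h, as tested by the direct contrast of the 48 h and 24 h libraries, beside 23.7% of tested genes called higher and 25.4% called lower in it. The difference on the log2 scale was 0.61 for Fosb, 0.27 for Fosl2, 0.14 for Jun, 0.50 for Jund and 1.10 for Atf3. It was -0.58 for Fosl1, -0.39 for Egr1 and -0.34 for Ier3. The calls of Jun and Jund were lost in some of the 16 alternatives that set no minimum fold. A minimum absolute log2 fold change of 1 left 1 of these calls, that of Atf3.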

How the results depend on the processing

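Of 480 member values recomputed under alternatives, 437 kept direction and call, 33 lost the call, 7 gained it and 3 changed sign. The count of members lower at 48 h, 2, became 1 with the size factors of DESeq2, with library size only, with DESeq2, at an adjusted p under 0.01 and with only the 2 groups compared. A minimum absolute log2 fold change of 1 left 1 member higher at 24 h, 1 at 48 h and 1 from 24 h to 48 h, and 0 lower at 48 h and 0 lower from 24 h to 48 h. DESeq2 called 3 members higher from 24 h to 48 h. Leaving out 1 library gave 1 to 2 members lower at 48 h and 0 to 1 lower at 24 h. The sign changes were Jund at 24 h, between -0.36 and 0.028 (0.0029 without control replicate 2), and Atf3 at 24 h, between -0.23 and 0.021. With no filter, 759 genes were higher at 24 h in place of 449. With the filter kept and an adjusted p under 0.01, 259 were higher. Apart from the stricter thresholds, why these settings changed the results was not tested.

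Same-numbered libraries did not visibly deviate together (correlations of -0.049 to 0.077, beside -0.097 to 0.095 for different numbers). With 3 libraries per group, this does not show that same-numbered libraries were handled separately. The fit with a replicate block called 4 members higher and 0 lower at 24 h, 5 and 2 at 48 h, and 5 and 3 between the times, as without it. Over all genes it called 538 higher and 420 lower at 24 h in place of 449 and 400. Fos, Fosb and Atf3 had at most 130 counts per library, which limits how small a change could be detected.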
